A study of Schizosaccharomyces pombe with 14 samples.

Results

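The transcriptome of fission yeast carrying the thermosensitive allele pac1-ts was compared with that of wild type (WT) after 2 h at 37°C, the restrictive temperature. The comparison used 3 of the 14 RNA-seq libraries of the series: 1 WT library (strain FBY13) and 1 library from each of 2 independent pac1-ts clones (clone 1, strain FBY2604; clone 2, strain FBY2605). All were h+ cells labelled ade6M210 leu1-32 ura4-D18 his3-D1, and the mutants also carried pac1-G1024A. Cultures in Edinburgh minimal medium with uracil, leucine, histidine and adenine were kept at 30°C and then moved to 37°C for the 2 h. The same 3 strains sampled at 30°C entered the same statistical model, so that the clones at both temperatures gave the spread, because WT had a single library per temperature. Beside these, 4 libraries from another background were used for values only: the h- anchor-away strain, in which rapamycin (2.5 µg/mL, 2 h) moves FRB-tagged Pac1 out of the nucleus (Pac1-AA, n = 2), and its control without the tag (CTL, n = 2).

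Pac1 is an RNase III enzyme that cuts double-stranded RNA, most often the stem of a hairpin. It is best known for making the 3′ ends of spliceosomal small nuclear RNAs (snRNAs), small nucleolar RNAs (snoRNAs) and ribosomal RNA precursors, where the cut in the nascent transcript gives exonucleases an entry point for trimming and for termination. When such a cut fails, RNA extending past the mature end is typically left on the transcript. The study also reported precursors extended at the 5′ end for some Pac1-bound snoRNAs, among them snoU14 and snr79, after Pac1 was moved out of the nucleus.

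The mutated base and the hairpins at snRNA ends are shown because they are the change that was made and the kind of RNA the enzyme cuts. All sequences are from RefSeq, assembly ASM294v3. The 30 bases of the pac1 coding strand around the mutated position lie at chrII:737758-737787 (- strand), with the capital marking coding base 1024, the reference base of the substitution G1024A, which replaces alanine by threonine at codon 342 of 363.
pac1: gcaaatcaaaaagacGcgggctctagggca
The most stable single hairpin predicted between 20 bases before and 180 bases after the mature 3′ end is printed next for 4 genes, as the 30 bases of each arm nearest the loop, 5′ to 3′, with predicted paired bases in capitals.
snu5 5′ arm, chrII:3236995-3237024 (+): GTTTCGGGGGATTTTcACCaACaTTAGGAC
snu5 3′ arm, chrII:3237028-3237057 (+): GTTCTAAgGTaGGTaAAAATTTTTCGAtAA
snu2 5′ arm, chrI:959346-959375 (-): GCCGAATCtTCTtcTGTTGaCAGATTTGTG
snu2 3′ arm, chrI:959313-959342 (-): CATGAATTTGaCAACAttGGAtGGTTTaGG
snu32 5′ arm, chrII:3958799-3958828 (-): TGTACATTtctTTGTAACAATTgTCGTGAA
snu32 3′ arm, chrII:3958766-3958795 (-): TTTGTGAgAATTGTTATAActtGATGTGCA
snu1 5′ arm, chrII:3020343-3020372 (+): ATTTgGGGcAATTTTACTAaTTAAGGCGAT
snu1 3′ arm, chrII:3020376-3020405 (+): GTTGCCTTAAaTAGTAAAGTTaTCCgAAAT
The predicted folding energy was -29.3 kcal/mol for snu5, -25.4 for snu2, -23.4 for snu32 and -31.1 for snu1. A hairpin as stable was found in 0.603%, 1.85%, 3.47% and 0.294% of 6801 windows of the same length at gene ends, respectively. The same search gave -17.8 kcal/mol for snu4, -17.3 for snu3 and -4.5 for snu6, values reached in 20.4%, 23.4% and 99.2% of windows. These are predictions from the letters alone and not mapped cleavage sites.

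The 3 libraries at 37°C held 16423762 (WT), 17417046 (clone 1) and 15997568 (clone 2) assigned fragments. Of 7049 annotated genes, 6728 had enough counts to be tested. The temperature label was checked with hsp16, a small heat shock protein gene, which stood at 31.2 CPM (fragment counts scaled to library size) in WT at 30°C and 1215 CPM in WT at 37°C. For the 20 genes of the heat shock list, log2 ratios of WT at 37°C to WT at 30°C ran from -1.04 to 5.28. Their median was -0.06, so the check rests on hsp16 and not on the list as a whole. The strain label of clone 1 did not hold for its ura4 marker. The ura4 gene (SPCC330.05c, III:115589-116726), which encodes a uracil biosynthesis enzyme, had 8060 counts in clone 1 at 37°C and 5383 at 30°C, against 1 and 0 in clone 2 and 2 and 0 in WT, although ura4-D18 is given for every strain. The markers ade6 (3508 to 4077 counts) and leu1 (3372 to 4729) were close in all 6 libraries of the experiment. The marker his3 had fewer counts and varied more, from 108 to 215. Among genes with a mean count of at least 20, only ura4 and the non-coding RNA SPNCRNA.1234 differed more than 2-fold between the clones in the same direction at both temperatures. The level in each clone is therefore given for each main gene, and the genes named here that lost their call without clone 1 at 37°C are given as such (174 of the 192 calls were kept). With both libraries of clone 1 out, the model with the interaction has no residual degrees of freedom, and an additive model, which gives no separate effect at 37°C, was not run. Clone 2 alone was past a log2 ratio of 1 for 146 of the 152 genes that rose and past -1 for 36 of the 40 that fell. These genes were called with clone 2 in the fit and against the same WT library, so this is a description and not independent support. The clones are separate strains, but nothing in the labels describes repeated cultures, so the p-values measure the spread between these libraries.

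At 37°C, 152 genes were higher and 40 lower in pac1-ts than in WT (absolute log2 fold change above 1 and adjusted p below 0.01, edgeR quasi-likelihood test with Benjamini-Hochberg adjustment), which is 2.26% and 0.595% of the genes tested. Most changes were small. The log2 fold change of the genes that rose was between 1.00 and 6.53 with a median of 1.34, and 30 of them exceeded 2. The genes that fell lay between -1.003 and -2.58 with a median of -1.23, and 2 were below -2. Both clones were on the same side of the WT library for all 192 genes, and for 188 of them the clones were within 1.5-fold of each other. The exceptions beyond 2-fold were ctr4 and map2. Calling genes from both clones against 1 WT library favours such agreement, so it does not test the calls. Leaving out clone 1 at 37°C gave 182 higher and 53 lower genes, and leaving out clone 2 gave 134 and 52. In all, 144 of the 192 calls were kept with either clone out. The genes nearest the fold threshold were scn3 (1.00) and mug28 (1.00) inside it and tht2 (0.9996) and pol4 (0.9993) outside it among the rises. Among the falls they were gnd1 (-1.003) and nda2 (-1.02) inside, and SPAC27D7.11c (-0.997) and SPBP35G2.04c (-0.990) outside.

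**Figure D1:**
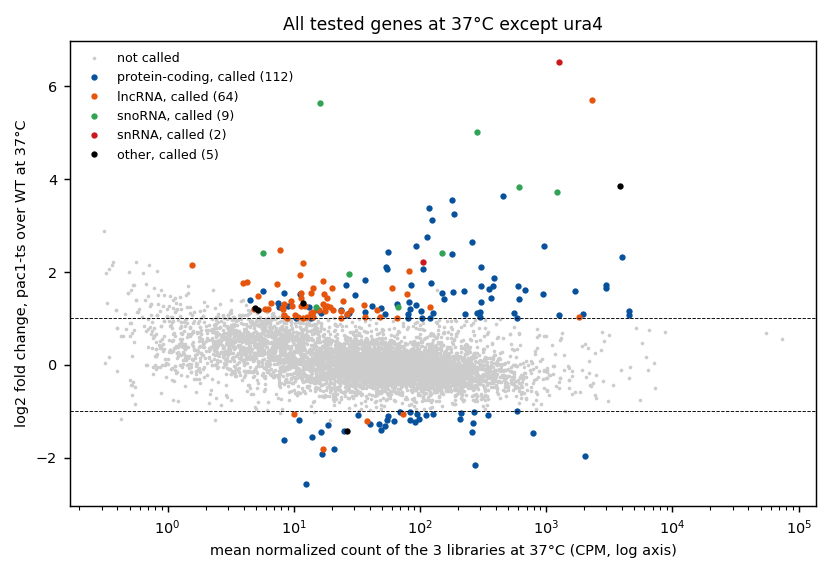
Log2 fold change of pac1-ts over WT at 37°C (vertical axis) against the mean level of each tested gene (horizontal axis), with called genes coloured; ura4 is not drawn. The 152 rises reach 6.53, in snu5, and the 40 falls reach -2.58, in SPAC186.06.

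The largest rise of all called genes was in an snRNA. The gene snu5 (SPSNRNA.05, II:3236617-3237051), whose U5 RNA holds exons together in the spliceosome, was at 20.3 CPM in WT and at 1589.7 and 2164 CPM in the clones (mean 1877 ± 406, SD, n = 2). Both clones were far above WT, a 92.3-fold difference (log2 6.53, SE 0.226, edgeR adjusted p = 1.36e-08). The gene snu2 (SPSNRNA.02, I:959305-959770), whose U2 RNA pairs with the intron branch site, was at 30.7 CPM in WT and at 151 and 133 CPM in the clones. Here too the clones were close to each other and above WT (4.64-fold, log2 2.21, SE 0.11, edgeR adjusted p = 1.99e-07).

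The remaining spliceosomal RNAs did not pass the test. U6 (snu6) was at 58.5 CPM in WT and 127 and 79.8 CPM in the clones (log2 0.83, edgeR adjusted p = 0.115). U4 (snu4) was at 12.9 CPM in WT and 14.2 and 14.8 CPM in the clones (0.17, edgeR adjusted p = 0.527). U1 (snu1), which has the most stable predicted hairpin of the 4 printed, was at 99.7 CPM in WT, between the clones at 106 and 69.2 CPM (-0.19, edgeR adjusted p = 0.661). The intervals over which fragments were counted run past the mature RNAs: that of snu5 spans 435 bases against 120 for the RefSeq RNA and ends 65 bases beyond its 3′ end, that of snu2 spans 466 against 187 and also ends 65 beyond, and that of snu1 spans 654 against 149 and ends 119 beyond. Those of snu4 and snu6 end 464 and 191 bases beyond. That of snu1 also overlaps the gene gpt2 on the same strand, and the effect of this on its count was not tested. Counts of these genes thus mix mature RNA with flanking transcript, and the 2 cannot be told apart in gene-level counts.

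**Figure D2:**
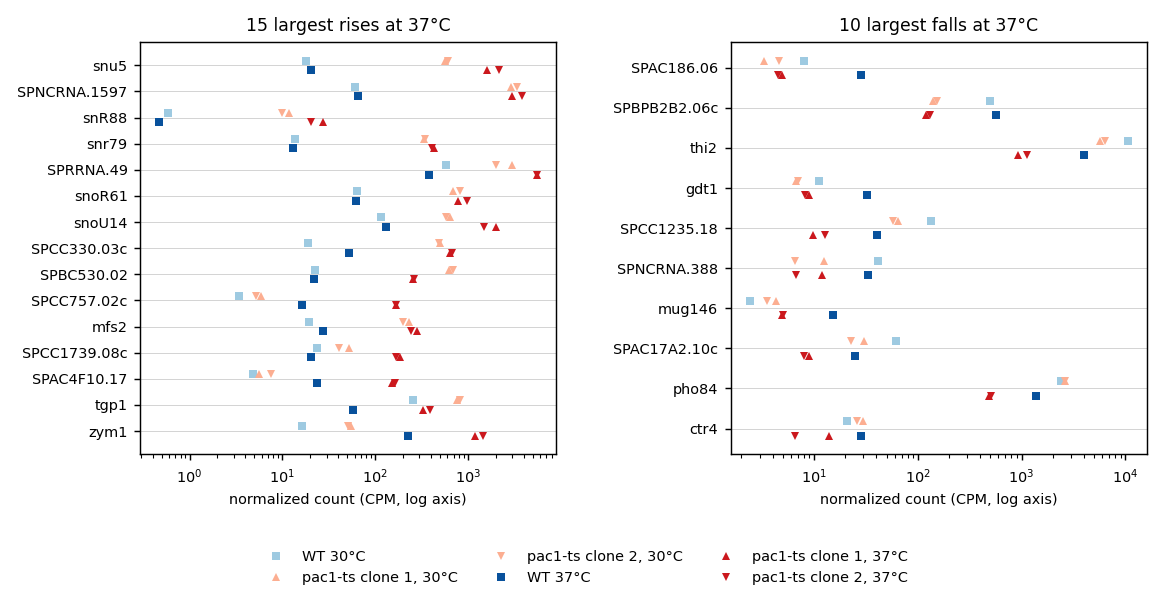
CPM in each library for the named genes with the largest rises and falls, on a log axis, with WT and both pac1-ts clones at both temperatures. For every gene drawn, both clones at 37°C lie on the same side of the WT library at 37°C, as the rule for choosing them required.

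Among snoRNAs, RNAs that guide modification and cleavage of ribosomal RNA, 9 of 42 tested rose and 0 fell (21.4% higher, against 2.26% of all genes tested). Their median log2 fold change was 0.63 against 0.00 over all genes tested. snR88 (SPSNORNA.53) had 9 counts in WT and 522 and 359 in the clones, or 0.473 against 27.2 and 20.3 CPM (49.6-fold, log2 5.63, SE 0.373, edgeR adjusted p = 2.38e-06). snr79 (SPSNORNA.54) was at 12.9 CPM in WT and at 436 and 406 CPM in the clones (32.6-fold, log2 5.02, SE 0.129, edgeR adjusted p = 2.68e-09). snoR61 (SPNCRNA.445) was at 61.9 CPM in WT and at 792 and 971 CPM in the clones (log2 3.83, SE 0.167, edgeR adjusted p = 1.09e-07). For all 3 the clones lay together, more than 10-fold above WT. U14 (snoU14), required for early cleavage of the ribosomal RNA precursor in budding yeast, was at 132 CPM in WT and at 1999 and 1492 CPM in the clones (log2 3.73, SE 0.186, edgeR adjusted p = 1.99e-07). The second U3 gene, snu32, was at 38.9 CPM in WT and at 180.3 and 233 CPM in the clones (log2 2.41, SE 0.163, edgeR adjusted p = 2.86e-06), whereas the first, snu3, was at 298 CPM in WT and 401 and 420 CPM in the clones (0.46, edgeR adjusted p = 0.00657) and stayed under the fold threshold. The intervals counted for the 2 U3 genes differ. That of snu32 ends 64 bases past the RefSeq 3′ end, and that of snu3 ends at -61, short of it. RNA extending past the 3′ end of snu3 would thus largely go uncounted, and the 2 values are not like for like. The snoRNA snoR02 was at 9.35 CPM in WT and at 33.4 and 39.6 CPM in the clones (log2 1.96).

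The study also mapped Pac1 on chromatin, and the genes under those binding sites were used here as a list. Of 167 listed genes, 154 were tested, of which 18 rose and 3 fell, or 11.7% and 1.95%, against 2.26% and 0.595% of all genes tested. The falls were 6 without clone 1. The median of the list was 0.00, as over all genes. Split by class, 6 of 11 tested bound snoRNAs rose (median 1.96), as did 2 of 4 bound snRNAs, 4 of 37 bound non-coding RNAs and 5 of 95 bound protein-coding genes (3 without clone 2). Of the 31 tested snoRNAs outside the list 3 rose (median 0.45), namely snoR69 (2.41), snoR69b (1.25) and snR191 (1.25), named after their values were seen. The other bound snoRNAs tested were sno12 (0.39), sno20 (0.81), snR10 (0.55), snu3 and SPNCRNA.1394 (0.12). Another 5, snR3, snR30, snR90, sno16 and snoZ16, had 0 or 1 counts in each library and could not be tested, which says nothing of their RNA in the cell. The genes that follow on the same strand within 1500 bases of a bound snRNA or snoRNA were not among the rises. Several bound genes, including snu4, snu32, snR88, snoU14 and snoR02, had no such gene within that distance. SPNCRNA.1299, named after its value was seen, lies 1566 bases past the bound ribosomal RNA segment SPRRNA.49 and rose (1.18). The coding gene sno1, 530 bases past snu2, had a log2 fold change of -0.96 (edgeR adjusted p = 2.99e-05).

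**Figure D3:**
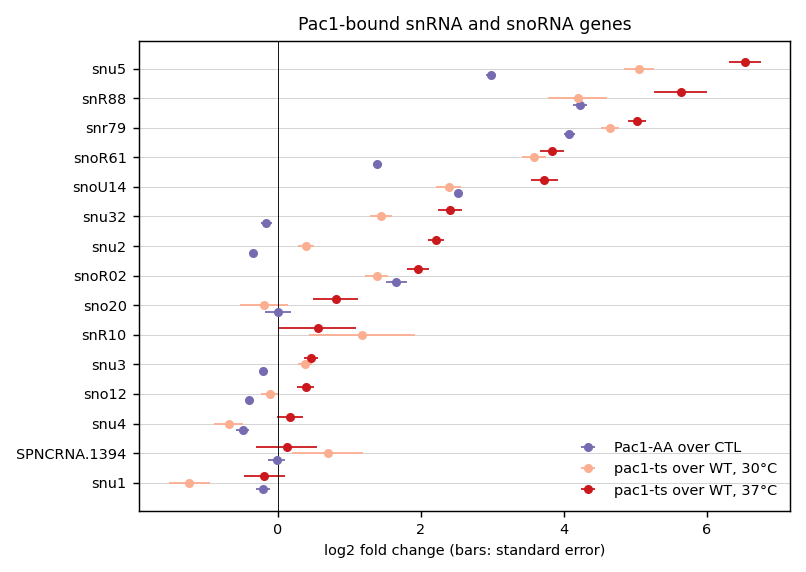
Log2 fold changes with standard errors of the tested snRNA and snoRNA genes on the Pac1-binding list, for pac1-ts at 37°C, pac1-ts at 30°C and Pac1-AA. The snu5, snR88 and snr79 genes are high in all 3 comparisons, and snu2 is at 2.21 at 37°C, 0.39 at 30°C and -0.35 in Pac1-AA.

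A segment annotated as 28S ribosomal RNA, SPRRNA.49 (III:2443713-2447197), was also on the binding list and was at 385 CPM in WT and 5591 and 5515 CPM in the clones. The clones differed little and were both above WT (14.4-fold, log2 3.85, SE 0.24, edgeR adjusted p = 1.46e-06). It is 1 of many near-identical repeats, and the libraries were depleted of ribosomal RNA, so its level depends on how repeats were counted and on the depletion. Fragments on all ribosomal RNA genes took 0.236% of the WT library and 0.828% and 0.815% of the clone libraries, and the part of this in the rise was not tested. RNAs of other particles and enzymes changed less at 37°C. The RNase P RNA rrk1 had a log2 fold change of -0.26 (edgeR adjusted p = 0.26). The signal recognition particle RNA srp7 had 0.33 (edgeR adjusted p = 0.0888) and the telomerase RNA ter1 -0.71 (edgeR adjusted p = 0.000662). At 30°C 1 of these 3 RNAs was called lower, and their median was -0.98. In Pac1-AA 0 were called. The study reported rrk1 as bound by Pac1 and lower in both Pac1-AA and pac1-ts. The RNase MRP RNA mrp1 had 2 to 10 counts per library and was not tested.

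The non-coding RNA with the largest rise was SPNCRNA.1597 (II:3390915-3393891), at 65.3 CPM in WT and 3012 and 3791 CPM in the clones (52.1-fold, log2 5.70, SE 0.212, edgeR adjusted p = 2.49e-08). It overlaps the bound snoRNA gene sno16 and the gene plt1 on the same strand, with lys9 on the other. Fragments were counted per strand, so those of lys9 should not be assigned to it. Fragments of same-strand transcripts that run outside the annotated sno16 or plt1 may be. SPNCRNA.727 (log2 1.74) similarly spans mrp1 and snoZ16. The other bound non-coding RNAs that rose were omt3 (1.66) and SPNCRNA.863 (1.03).

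Of the bound protein-coding genes, a pair of membrane transporter genes stood highest. The gene mfs2 (SPAC11D3.05, I:113950-115962), a major facilitator transporter, was at 27.8 CPM in WT and at 283 and 244 CPM in the clones (9.48-fold, log2 3.24, SE 0.156, edgeR adjusted p = 1.75e-07). SPBC530.02 (II:787678-789529), a predicted transporter of the same superfamily, was at 22.1 CPM in WT and at 257 and 262 CPM in the clones (11.7-fold, log2 3.55, SE 0.12, edgeR adjusted p = 1.29e-08). Of the list of 11 related transporters these 2 rose and 0 fell, with a list median of -0.10. The other bound coding genes that rose were the lifespan gene ecl2 (1.09), the pheromone gene map2 (1.83) and the ribosomal protein gene rpl39 (1.12). Those that fell were the thiamine biosynthesis gene thi2, the phosphate transporter gene pho84 and the zinc transporter gene zrt1.

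By class, 77 of 5062 tested protein-coding genes rose and 35 fell (1.52% and 0.691%, against 2.26% and 0.595% of all genes), with a median of -0.07, so their share of falls was near that of all genes. Of 1368 long non-coding RNAs 60 rose and 4 fell (4.39% and 0.292%), with a median of 0.38. Those that overlap a gene on the opposite strand rose in 34 of 774 (median 0.39; 21 or 22 under the other scalings), those that overlap genes on both strands in 17 of 134 (0.48), those with no overlap in 8 of 358 (0.34) and those with only a same-strand overlap in 1 of 102 (0.31). Those with no overlap rose in 14 without clone 1 and in 4 without clone 2, and the falls of the class were 7 without clone 2. Level moved with these medians. Among the lowest 20% of all tested genes by mean count, coding genes had a median of 0.37 (n = 255) and non-coding RNAs 0.46 (n = 882), and in the highest 20% of coding genes the median was -0.20. The part of low counts in the class difference was not tested further. Transfer RNAs had a median of 0.50 with 2 rises of 137 tested (5 without clone 1, 1 without clone 2), and 136 of these were among those lowest 20%.

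The mitochondrial transcripts shifted together by a smaller amount. Of 38 tested, 37 had both clones above WT and 28 had an adjusted p below 0.01 (edgeR), but 0 were called (1 without clone 1), with log2 fold changes between -0.03 and 0.97 and a median of 0.67. At 30°C their median was 0.06 and in Pac1-AA 0.01. The difference between temperatures passed the test for 6 of them, all mitochondrial transfer RNAs, with 0 in the other direction. Genes within 100 kb of the ends of chromosomes I and II had a median of 0.60 at 37°C, 0.49 at 30°C and 0.07 in Pac1-AA (104 tested there). At 37°C 11 of 147 tested rose and 6 fell, or 7.48% and 4.08%, against 2.26% and 0.595% of all genes tested.

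**Figure D4:**
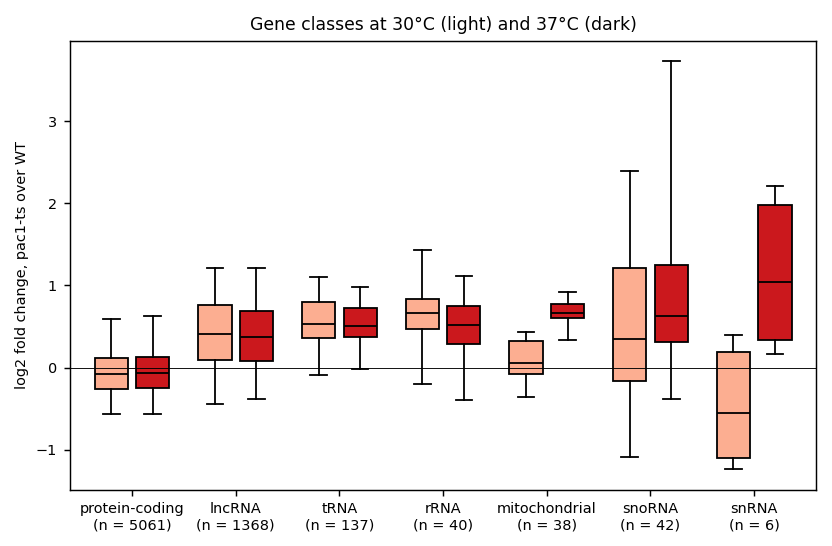
Box plots of the log2 fold change of pac1-ts over WT (vertical axis) of tested genes by annotated class, at 30°C (light) and 37°C (dark), with the median as a line, boxes over the middle quartiles, whiskers from the 5th to the 95th percentile and ura4 left out. At 37°C medians lie at -0.07 for protein-coding genes, 0.38 for long non-coding RNAs, 0.63 for snoRNAs and 0.67 for mitochondrial transcripts.

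Several coding genes of the stress response were higher in the mutant than in the equally heated WT cells. Of 18 core stress genes, 6 rose and 0 fell at 37°C (33.3% higher, against 2.26% of all genes tested), with a median of 0.53 against 0.00. At 30°C 2 of them rose and 0 fell, with a median of 0.35. The difference between temperatures passed the test for 0 of them. In Pac1-AA 0 rose and 1 fell, with a median of 0.12. The metallothionein gene zym1, whose product binds metal ions, was at 224 CPM in WT and 1193 and 1465 CPM in the clones (log2 2.57, SE 0.14, edgeR adjusted p = 4.93e-07). The stress-induced gene rds1 was at 717 CPM in WT and 2150.2 and 2177 CPM in the clones (log2 1.59), and the catalase gene ctt1 was at 289.9 CPM in WT and 776 and 765 CPM in the clones (log2 1.41). All 3 had also been higher in WT at 37°C than in WT at 30°C, where they stood at 16.3, 127 and 112 CPM. The remaining members that rose were hsp9 (1.17), ish1 (1.03) and gpx1 (1.02). Of these, ish1 was at 0.96 without clone 1, and gpx1 and hsp9 were at 0.94 and 0.99 without clone 2, under the fold threshold. Both ish1 (0.96 to 0.98) and gpx1 (0.95 to 0.97) also lost the call with DESeq2, RLE size factors and library totals.

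The heat shock list behaved differently from its leading member. Of its 20 genes, the small chaperone genes hsp16 (1215 CPM in WT, 3575 and 4112 CPM in the clones, log2 1.66) and hsp9 rose and 0 fell, but 6 others had negative changes with an adjusted p below 0.01 (edgeR) that were too small for a call, and the median was -0.21. Without clone 2 only hsp16 was called. Of 18 oxidative stress genes 4 rose and 0 fell at 30°C, with a median of 0.25. The difference between temperatures was negative and passed the test for 3 of the 18, with 0 in the other direction. At 37°C 4 rose and 0 fell, with a median of 0.07. The genes that rose at 37°C were ctt1, gpx1, the glutathione transferase gene gst2 at 1.02 and the sulfiredoxin gene srx1 at 1.11. The count was 2 without clone 2, and gst2 was at 0.83 without clone 1.

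The stress-activated factor Atf1 binds a core written TGACGT, which was searched in promoters, here 250 bases before to 50 after each gene start, on both strands. It was present in 10 of the 77 coding genes that rose (13.0%), in 5 of the 35 that fell (14.3%) and in 299 of all 5062 tested coding genes (5.91%). The matches at 3 stress genes that rose are printed with the core in capitals, from RefSeq ASM294v3, as a description and not as shown binding sites.
ctt1, chrIII:58878-58901 (-): gtgcaaataTGACGTtggtaattc
ish1, chrII:2518774-2518797 (-): agggagtttACGTCAgttagatta
rds1, chrI:1667626-1667649 (+): ccaagtcacACGTCAagctgagac
In ish1 and rds1 the core reads on the reverse strand. The same search gave no match to print for zym1, hsp9, hsp16, gpx1, gst2 or srx1, which also rose.

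The strongest rises among the other coding genes were in genes with predicted or unassigned functions. SPCC330.03c, a predicted cytochrome b5 reductase gene, was at 52.3 CPM in WT and 634 and 667 CPM in the clones (log2 3.64, SE 0.113, edgeR adjusted p = 7.95e-09). It lies 4934 bases from ura4, and unlike ura4 it was alike in both clones. SPCC757.02c, a predicted epimerase gene, was at 16.2 CPM in WT and 167 and 168 CPM in the clones (log2 3.37, SE 0.106, edgeR adjusted p = 7.95e-09). SPCC1739.08c, a predicted dehydrogenase gene, was at 20.3 CPM in WT and 183 and 168 CPM in the clones (log2 3.11, SE 0.154, edgeR adjusted p = 1.99e-07), and SPAC4F10.17 was at 23.5 CPM in WT and 153 and 163 CPM in the clones (log2 2.75). In each of these the clones lay within 1.5-fold of each other and well above WT.

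Genes for uptake of nutrients moved in both directions. The glycerophosphodiester transporter gene tgp1 rose from 57.2 CPM in WT to 327 and 388 CPM in the clones (log2 2.64, SE 0.132, edgeR adjusted p = 1.99e-07), while the phosphate transporter gene pho84 fell from 1383 CPM to 491 and 505 CPM (log2 -1.47, SE 0.106, edgeR adjusted p = 4.68e-06). They were the members called of the 6 phosphate genes. The zinc transporter gene zrt1 was at 446 CPM in WT and 157 and 169.6 CPM in the clones (log2 -1.45, SE 0.112, edgeR adjusted p = 7.78e-06). The copper transporter gene ctr4 was at 28.5 CPM in WT and 13.98 and 6.63 CPM in the clones, which were more than 2-fold apart (log2 -1.46, SE 0.277, edgeR adjusted p = 0.00378). With these, 0 of 8 copper and zinc genes rose and 2 fell (median -0.28). Of 15 iron genes 1 rose, the heme uptake gene shu1 (1.58), and 0 fell (median 0.30). Among 8 hexose transporter genes ght7 (1.25) and ght3 (1.18) rose and ght5, a high-affinity glucose transporter, fell from 77.7 CPM to 33.2 and 30.9 CPM (log2 -1.28), and without clone 1 ght3 was at 0.93.

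Among metabolic genes, 3 of 17 glycolytic and fermentative genes rose, the second enolase gene eno102 (1.88), the pyruvate decarboxylase gene pdc102 (1.28) and the glyceraldehyde-3-phosphate dehydrogenase gene gpd3 (1.08), while the list median was -0.37 and 0 fell. The thiazole synthase gene thi2, of thiamine biosynthesis, was at 4016 CPM in WT and 931 and 1120.0 CPM in the clones (log2 -1.97, SE 0.159, edgeR adjusted p = 1.05e-05). It was the only called member of 7 thiamine genes, and all 7 had values below 0 (median -0.50, 4 with an edgeR adjusted p below 0.01). The largest fall of the comparison was in SPAC186.06, a predicted isomerase gene at 28.2 CPM in WT and 4.96 and 4.48 CPM in the clones (log2 -2.58, SE 0.2, edgeR adjusted p = 8.05e-06). Its neighbour gdt1 fell with it (32.8 CPM in WT, 8.97 and 8.21 CPM in the clones, log2 -1.93). The other falls beyond -1.5 were in SPBPB2B2.06c (-2.17), SPCC1235.18 (-1.82), SPNCRNA.388 (-1.82), mug146 (-1.62) and SPAC17A2.10c (-1.56).

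Growth and cell cycle lists held few calls. Of 131 cytoplasmic ribosomal protein genes 1 rose (rpl39, from 158 CPM to 312 and 372 CPM, and at 0.96 without clone 2) and 0 fell, but the list median was -0.42, and 50 members had a negative change with an adjusted p below 0.01 (edgeR). The same median was -0.51 at 30°C and -0.47 in Pac1-AA. Of 14 genes expressed from G1 into S phase, cdt2, which promotes replication through protein turnover, rose (1.12) and 0 fell, with a median of 0.41. Without clone 1 cdt2 was at 0.97 and none of the list was called, and without clone 2 there were 3. Of 21 mating genes 2 rose, map2, which encodes a mating pheromone (13.6 CPM in WT, 65.1 and 30.99 CPM in the clones, log2 1.83, SE 0.413, edgeR adjusted p = 0.00886), and inv1 (log2 1.70), an invertase gene that acts in sucrose use rather than mating, and 0 fell, with a median of 0.21. The map2 call was lost with DESeq2, RLE size factors, library totals and a filter at a mean count of 50, and its log2 fold change was 1.15 without clone 1 and 2.23 without clone 2. Of 13 septation genes 0 were called (2 without clone 2), with a median of 0.44 against -0.60 at 30°C.

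The machinery around Pac1 was little changed. The pac1 transcript itself was at 69.0 CPM in WT and 85.8 and 77.2 CPM in the clones (log2 0.24, SE 0.116, edgeR adjusted p = 0.149), with both clones slightly above WT. None was called of the 13 RNase III and RNA interference genes (median -0.01), the 21 RNA decay genes (-0.06), the 20 cleavage and polyadenylation genes (-0.06), the 20 meiotic genes under Mmi1-directed decay (0.04), the 10 histone genes (-0.16), the 26 ribosome biogenesis genes (-0.06) and the 8 genes of uracil synthesis that include ura4 (-0.15). In the RNase III list every log2 fold change lay between -0.38 and 0.30.

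The effect at 37°C was then compared with that of the same clones at 30°C, the semi-restrictive temperature. At 30°C 109 genes were higher and 53 lower (1.62% and 0.788% of those tested). The 2 temperatures shared 56 rises, 36.8% of those at 37°C and 51.4% of those at 30°C, and 11 falls, 27.5% and 20.8%. The 2 sets of clone libraries come from the same strains, so these overlaps are not independent. The difference between the effects, tested as the strain by temperature interaction, was positive for 48 genes and negative for 19 (0.713% and 0.282%). With the replicate block, which pairs the libraries of each clone, they were 79 and 41. Library totals gave 27 positive genes and a filter at a mean count of 50 gave 21, and leaving out a clone library gave 60 to 79 positive and 32 to 43 negative genes.

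The snRNAs and snoRNAs split in this respect. For snu2 the log2 fold change was 0.39 at 30°C, where WT was at 29.2 CPM and the clones at 36.9 and 39.7 CPM, so nearly the whole rise appeared at 37°C (interaction 1.82, edgeR adjusted p = 0.000207). For snu5 the change was already 5.05 at 30°C, with WT at 17.8 CPM and the clones at 562 and 615 CPM, and it was larger at 37°C (interaction 1.48, edgeR adjusted p = 0.00873). The same held for snoU14 (2.39 at 30°C, interaction 1.34, edgeR adjusted p = 0.00714). By contrast SPNCRNA.1597 stood at 5.69 at 30°C and 5.70 at 37°C, and no difference between temperatures passed the test for snr79 (4.64 at 30°C), snoR61 (3.59) or mfs2 (3.49).

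Coding genes with the largest positive differences were SPCC757.02c (0.69 at 30°C, interaction 2.69), SPAC4F10.17 (0.44 at 30°C, interaction 2.31), SPCC1739.08c (0.97 at 30°C, interaction 2.15) and inv1, which was at 121 CPM in WT and 348 and 443 CPM in the clones at 37°C but at 80.5 CPM in WT and 60.4 and 61.9 CPM in the clones at 30°C (interaction 2.10). SPBC530.02 went the other way, with 22.3 CPM in WT and 625 and 685 CPM in the clones at 30°C, more than at 37°C (4.88 at 30°C, interaction -1.33, edgeR adjusted p = 0.00103). For pho84 the clones at 30°C, at 2618 and 2642 CPM, were close to WT at 2388 CPM, and the fall was seen at 37°C (interaction -1.61, edgeR adjusted p = 0.000384). The pac1 transcript itself had been lower in the clones at 30°C (124 and 121 CPM against 248 CPM in WT, log2 -1.01), and the temperatures differed (interaction 1.26, edgeR adjusted p = 0.00249), with the WT level falling from 248 to 69.0 CPM between temperatures.

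**Figure D5:**
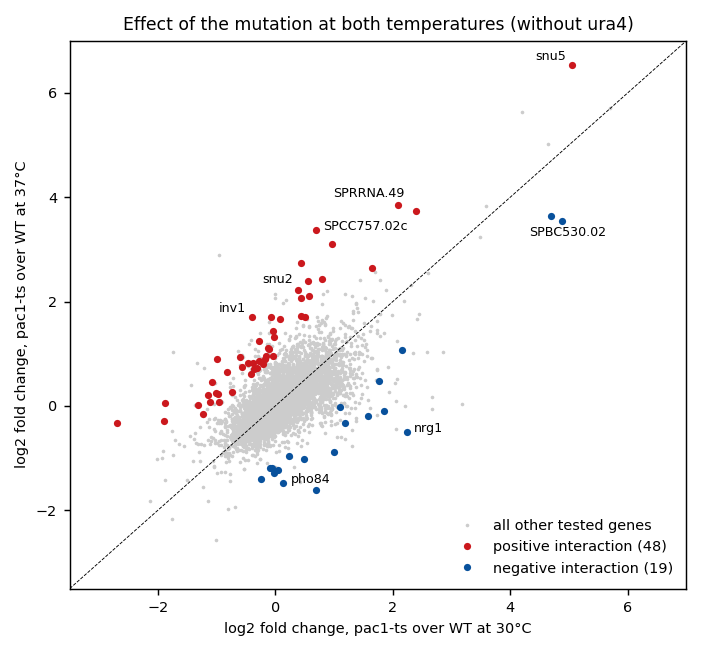
Log2 fold change of pac1-ts over WT at 30°C (horizontal axis) and at 37°C (vertical axis) for tested genes, with genes past the interaction test coloured; ura4 is not drawn. The snu5 gene is at 5.05 and 6.53, snu2 at 0.39 and 2.21, and SPBC530.02 at 4.88 and 3.55.

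Nuclear depletion of Pac1 in the anchor-away strain offered values from another background, another library kit and other controls. Among 6318 genes tested in both experiments, 39 were higher and 14 lower in Pac1-AA than in CTL (0.617% and 0.222%). Of the genes higher in pac1-ts at 37°C and tested in both, 22 of 146 were also higher in Pac1-AA, which is 15.1% of that list and 56.4% of the Pac1-AA list. These included snr79 (4.08 in Pac1-AA), snR88 (4.23), SPBC530.02 (5.11), mfs2 (3.95), SPCC330.03c (3.44), snu5 (2.98), SPNCRNA.1597 (2.60), snoU14 (2.52), snoR02 (1.66) and snoR61 (1.39). In contrast snu2 had -0.35 in Pac1-AA, snu32 -0.16, tgp1 0.01 and SPRRNA.49 0.40. Lower calls were shared by 2 genes, 5% of the 40 and 14.3% of the 14, and ght5 fell in both (-1.12 in Pac1-AA). The gene gdt1 fell in pac1-ts at 37°C and rose in Pac1-AA (2.10). The libraries of the 2 experiments were made with different kits, and the difference between the effects in the 2 experiments was not tested.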

How the data were processed

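Total RNA depleted of ribosomal RNA was sequenced paired-end. The authors trimmed reads with trimmomatic, mapped them to the ASM294v2 genome with HISAT2 and counted fragments per gene and strand with featureCounts. The deposited table holds these raw counts per gene for 14 libraries, together with gene positions and a length column deposited as another descriptive value. Gene names came from RefSeq (ASM294v3; 6836 of 7049 identifiers matched).

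Genes passing edgeR's filter on low counts (minimum count of 10) were tested in R 4.3.3 with edgeR 4.0.16, TMM scaling, quasi-likelihood tests and Benjamini-Hochberg adjustment over all 6728 genes. The model held strain, temperature and their interaction over the 6 libraries of the experiment (15997568 to 17743083 counts each; 3 counts correspond to 0.169 to 0.188 CPM before scaling). The biological coefficient of variation was 0.0786. CPM values are scaled by TMM. Log2 fold changes compare pac1-ts with WT. The clones at 37°C differed by more than sampling noise (chi-square per degree of freedom 19.4), so they are not the same library.

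The labels pair the 30°C and 37°C libraries of each clone. Deviations of clones from their group means correlated between temperatures (r = 0.521 across 6728 genes). On simulated data at the sizes of the 37°C contrast, 98 of 100 genes changed by log2 1.5 and 100 of 100 changed by 2.5 were recovered, with 0 of the unchanged genes called. For the interaction they were 90 of 100 and 98 of 100, with 1 unchanged gene called. The simulated libraries were independent, without clone pairing, and WT was given the spread of the clones. The simulation therefore cannot show errors that come from having a single WT library per temperature.

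Genes named are the 15 largest rises and 10 largest falls at 37°C with a mean count of at least 20 and both clones on the same side, the 6 largest interactions in each direction, fixed RNA lists and called members of the other lists. Others are marked. The members and lists were chosen with earlier results of these data known. The Pac1-binding list gives membership only. Lists are described by counts and medians. Hairpins were predicted with ViennaRNA 2.7.2. Alternatives covered DESeq2 1.42.0, other scalings, filters and thresholds, a replicate block and leaving out each library.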

Additional observations from a re-analysis of the deposited data

Results flagged for a closer look

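The effect of pac1-ts differed between 37°C and 30°C, by the interaction term of the edgeR quasi-likelihood model, for the following named genes, given as the difference of log2 fold changes (37°C minus 30°C). Positive differences were found for SPCC757.02c (2.69), SPNCRNA.397 (2.36), SPAC4F10.17 (2.31), SPCC1739.08c (2.15), inv1 (2.10), the surface protein gene SPAC212.08c (1.94), snu2 (1.82), SPRRNA.49 (1.76), snu5 (1.48), snoU14 (1.34), pac1 (1.26), cdt2 (1.24) and tgp1 (1.01). Negative differences were found for SPCC330.03c (-1.06), gpd3 (-1.07), SPBC530.02 (-1.33), pho84 (-1.61), SPNCRNA.1271 (-1.78), SPCC569.09 (-1.89), SPNCRNA.687 (-1.94), mug146 (-2.31) and the amino acid permease gene nrg1 (-2.74).

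A difference of this kind can come from a change in either strain between temperatures. In nrg1 the WT library went from 11.4 to 65.7 CPM while the clones stayed between 45.8 and 59.1 CPM at both temperatures. In SPAC212.08c WT went from 113 to 13.2 CPM and the clones from 33.4 and 28.4 to 14.1 and 13.4 CPM. For SPNCRNA.397 the clones at 37°C, at 15.5 and 30.3 CPM, lay on either side of WT at 28.7 CPM.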

How the results depend on the processing

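The counts of 152 higher and 40 lower genes at 37°C came to 122 and 46 with DESeq2, 126 and 50 with RLE size factors, 122 and 52 with library totals alone, 153 and 40 with ribosomal RNA genes left out, and 134 and 41 with a mean count of at least 50. With the replicate block, which uses the pairing of clones across temperatures, they were 203 and 43, and all 192 calls were kept. With the 37°C libraries alone they were 183 and 43. Without the fold threshold the counts were 390 and 423, and with a threshold of 0.5 they were 349 and 320. Leaving out each library gave 134 to 183 higher and 40 to 53 lower genes. The 48 positive interactions became 27 with library totals, 21 with the mean count filter and 79 with the replicate block, and 60 to 79 with a library left out. The 19 negative interactions became 41 with the replicate block, 32 at an adjusted p below 0.05, and 32 to 43 with a library left out. The cause of these shifts was not tested. The interaction could not be fitted without WT at 30°C or with the 37°C libraries alone, and with both libraries of clone 1 out the interaction model has no residual degrees of freedom. No named gene changed sign in a called value. The named genes gpx1, gst2, ish1 and map2 lost their call under RLE size factors, library totals and DESeq2, ctr4 and SPNCRNA.388 under DESeq2, and map2 also under the mean count filter. Antisense-only non-coding RNAs had 21 or 22 rises, against 34, under these scalings. Each scaling moved the median of all genes by less than 0.1. WT had 1 library per temperature, so its spread is assumed to equal that of the clones.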
